A study of Rattus norvegicus with 127 samples.

Results

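Pelvic floor muscle of rats that had received a simulated birth injury (SBI) and, after a delay, an injection of saline was compared with muscle that had received the same injury and no injection. The saline muscle was taken 7 days after the delayed injection and the uninjected muscle 35 days after the injury. These times are taken here as matched, which the labels do not state. The 2 groups hold 16 of the 127 deposited samples, 10 of delayed saline day 7 and 6 of SBI day 35, chosen by their labelled condition alone. All were pubocaudalis muscle of Sprague Dawley rats, and all 134 genes of the study's nCounter panel, an assay in which barcoded probes count RNA molecules, were used in each. The labels do not give the length of the delay, the force of the injury or the sex and age of the animals, and they do not tell whether separate animals gave the samples. The p-values therefore measure the spread between samples, which may not be separate animals. For genes, that spread was estimated from all 18 groups of the study and not from these 16 samples alone. The rest of the study adds earlier and later times after injury, immediate injection, injection of a hydrogel made from skeletal muscle matrix, and 3 uninjured samples.

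Injured skeletal muscle is rebuilt from satellite cells, the resident stem cells, which express Pax7, become myoblasts under Myf5 and Myod1, and fuse under Myog into new fibres. New fibres carry embryonic myosin heavy chain, the product of Myh3, before adult myosins replace it. Fibroblasts and fibro-adipogenic progenitors, marked by the receptor gene Pdgfra, lie between the fibres, make collagens and decorin, and supply factors that act on satellite cells.

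On levels set relative to the panel median of each sample, delayed saline day 7 differed from SBI day 35 in 2 of the 134 genes, against 1.49% of the panel called in either direction. Myh3 was higher in delayed saline day 7 and Pdgfra was lower. In each direction this was 0.746% of the panel. Both calls lay close to the threshold, and the rest of the panel, inflammatory, contractile and metabolic genes included, held no called gene. The test was limma over all 18 groups of the study, with Benjamini-Hochberg adjustment over the 134 genes and an adjusted p under 0.05 as the threshold.

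The groups differ in the scale of the deposited values, which is why levels were centred. The panel median of log2(value + 1) was 9.22 at the lowest, 9.59 at the median and 9.67 at the highest in delayed saline day 7, against 9.98, 10.24 and 10.34 in SBI day 35. The groups do not overlap, and the means, 9.51 ± 0.18 (SD, n = 10) in delayed saline day 7 and 10.19 ± 0.15 (n = 6) in SBI day 35, differed by -0.68 (two-sided exact permutation test, p = 0.00025, the smallest that the 8008 arrangements can give). The counts behind the values lay closer together. Each deposited value is a whole count times a factor that is constant within a sample, so the counts could be recovered. The median recovered count of the panel averaged 635 ± 162 in delayed saline day 7 and 681 ± 182 in SBI day 35 (two-sided exact permutation test, p = 0.610). Recovered total counts ran from 820146 to 1598496 in delayed saline day 7, against 647221 to 1554696 in SBI day 35 (two-sided exact permutation test, p = 0.783). The factor itself, the deposited value of 1 count, averaged 1.21 ± 0.33 in delayed saline day 7 and 1.89 ± 0.84 in SBI day 35 (two-sided exact permutation test, p = 0.0237). What set the factor was not given in the sources used here. Samples with identical panel counts carried different factors: 0.768 and 1.095 in SBI day 3 replicates 6 and 7. In SBI day 7 they were 2.42 and 2.66 for replicates 5 and 7, and 0.655 and 0.670 for replicates 6 and 8. The part of the processing in the scale difference between delayed saline day 7 and SBI day 35 was not tested.

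**Figure D1:**
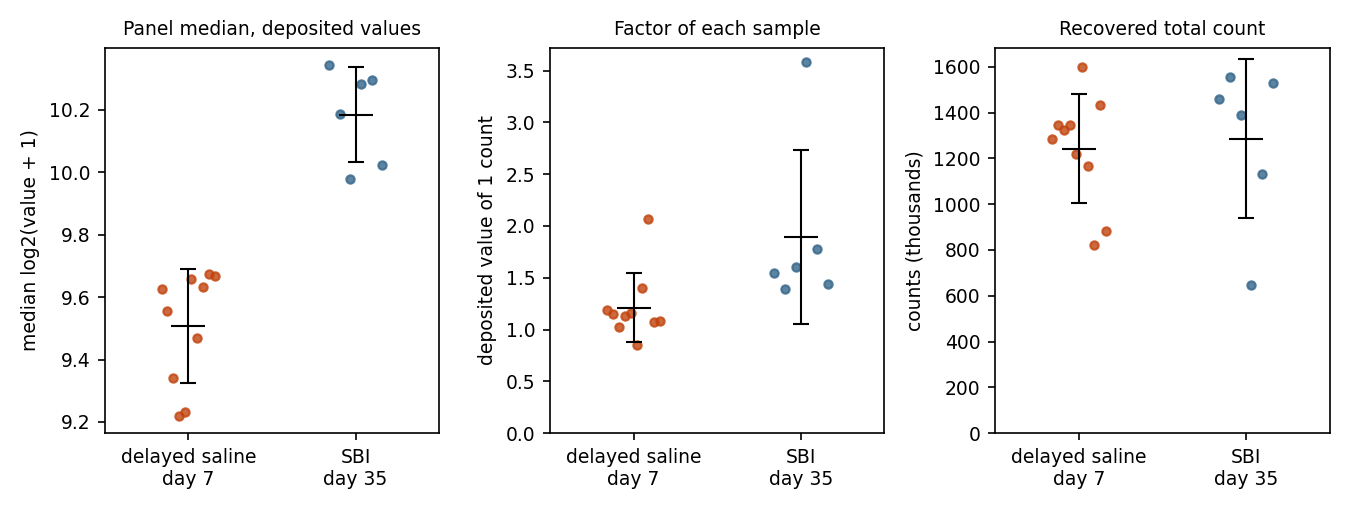
Panel median of the deposited values (log2), the factor applied to each sample (deposited value of 1 count) and the recovered total count, with delayed saline day 7 (10 samples, left) and SBI day 35 (6 samples, right) in each panel; points are samples, the horizontal bar is the mean and the error bar 1 SD. The panel medians do not overlap, while the recovered totals cover much the same range.

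Without centring, 73 genes passed the threshold, or 54.5% of the panel: 72 were lower (53.7%) and 1, Myh3, was higher. On that scale 42 genes (31.3%) had every delayed saline day 7 sample below every SBI day 35 sample. Only 9 genes (6.72%) had a difference above 0 on that scale. Centring leaves 64 genes above 0 and 70 below it, with a median difference of -0.02 over the panel.

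Fibre markers dominated both groups, as the tissue label says. Acta1, Myh1, Myh7, Tnnt3, Ttn, Des and Dmd together took 59.0 to 66.8% of the counts in delayed saline day 7 (median 64.1%) and 58.8 to 65.5% in SBI day 35 (median 62.3%), with no marker at 0 in any sample. Libraries stood apart by different measures. Delayed saline day 7 replicate 10 had the lowest total of deposited values, 956728, and a median correlation of 0.938 with the other samples of its group, against 0.960 to 0.981 for the others. SBI day 35 replicate 4 had a factor of 3.58, the lowest recovered total, 647221, and 11 probes at a count of 0, against 0 to 3 in the other 5 samples of its group. By correlation the lowest sample of SBI day 35 was replicate 3, at 0.953, followed by replicate 4 at 0.959, with the other 4 at 0.973 to 0.981. Without replicate 3 the Myh3 difference was 2.16 (adjusted p = 0.191 in limma) and the Pdgfra difference -0.52 (adjusted p = 0.119). Leaving out delayed saline day 7 replicate 10 and SBI day 35 replicate 4 together, a choice made after seeing the data, took the 2 calls to none. The Myh3 difference was then 2.43 ± 0.72 (SE, adjusted p = 0.0756 in limma) and the Pdgfra difference -0.46 ± 0.15 (adjusted p = 0.0979).

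Myh3 encodes the embryonic myosin heavy chain. Its centred log2 level was -0.54 at the lowest, 0.66 at the median and 1.73 at the highest in delayed saline day 7, against -2.71, -1.41 and -0.65 in SBI day 35. Every delayed saline sample stood above every SBI day 35 sample, which held for no other gene of the panel (0.746% of genes). The gap between the groups was narrow, since saline replicate 5 (-0.54) lay just above SBI day 35 replicate 2 (-0.65). The mean level was 0.67 ± 0.67 (SD, n = 10) in delayed saline day 7 and -1.69 ± 0.83 (n = 6) in SBI day 35, a difference of 2.36 ± 0.67 (SE, adjusted p = 0.0387 in limma), with a 95% interval of 1.04 to 3.68. On the log2(value + 1) scale this is 5.13-fold. Recovered counts ran from 355 to 1975 in delayed saline day 7 and from 97 to 533 in SBI day 35, so counting error is small beside this difference.

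Pdgfra, the receptor gene of fibro-adipogenic progenitors, moved the other way. Its centred log2 level was -0.74 at the lowest, -0.05 at the median and 0.59 at the highest in delayed saline day 7, against 0.33, 0.52 and 0.68 in SBI day 35. Of the 10 delayed saline samples, 9 lay below every SBI day 35 sample, and replicate 6 (0.59) lay within their range. The mean level was 0.00 ± 0.35 (SD, n = 10) in delayed saline day 7 and 0.51 ± 0.12 (n = 6) in SBI day 35, a difference of -0.51 ± 0.14 (SE, adjusted p = 0.0387 in limma), or 0.702-fold. Replicate 10, which stood apart, was also the lowest sample (-0.74), and without it the difference was -0.43 (adjusted p = 0.171). In bulk muscle, fewer cells of a type and less RNA per cell cannot be told apart.

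How far these calls rest on single samples and on the fit was measured. When each of the 16 samples was left out in turn, Myh3 kept its direction in all 16 fits (2.15 to 2.57) and passed in 2, those without saline replicate 1 or 4. Pdgfra kept its direction in all 16 (-0.58 to -0.43) and passed in 4, those without saline replicate 1, 2, 4 or 6. The adjusted p reached 0.193 for both, without SBI day 35 replicate 1. Fitting the 2 groups alone gave Myh3 an adjusted p of 0.00073 and Pdgfra one of 0.200.

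**Figure D2:**
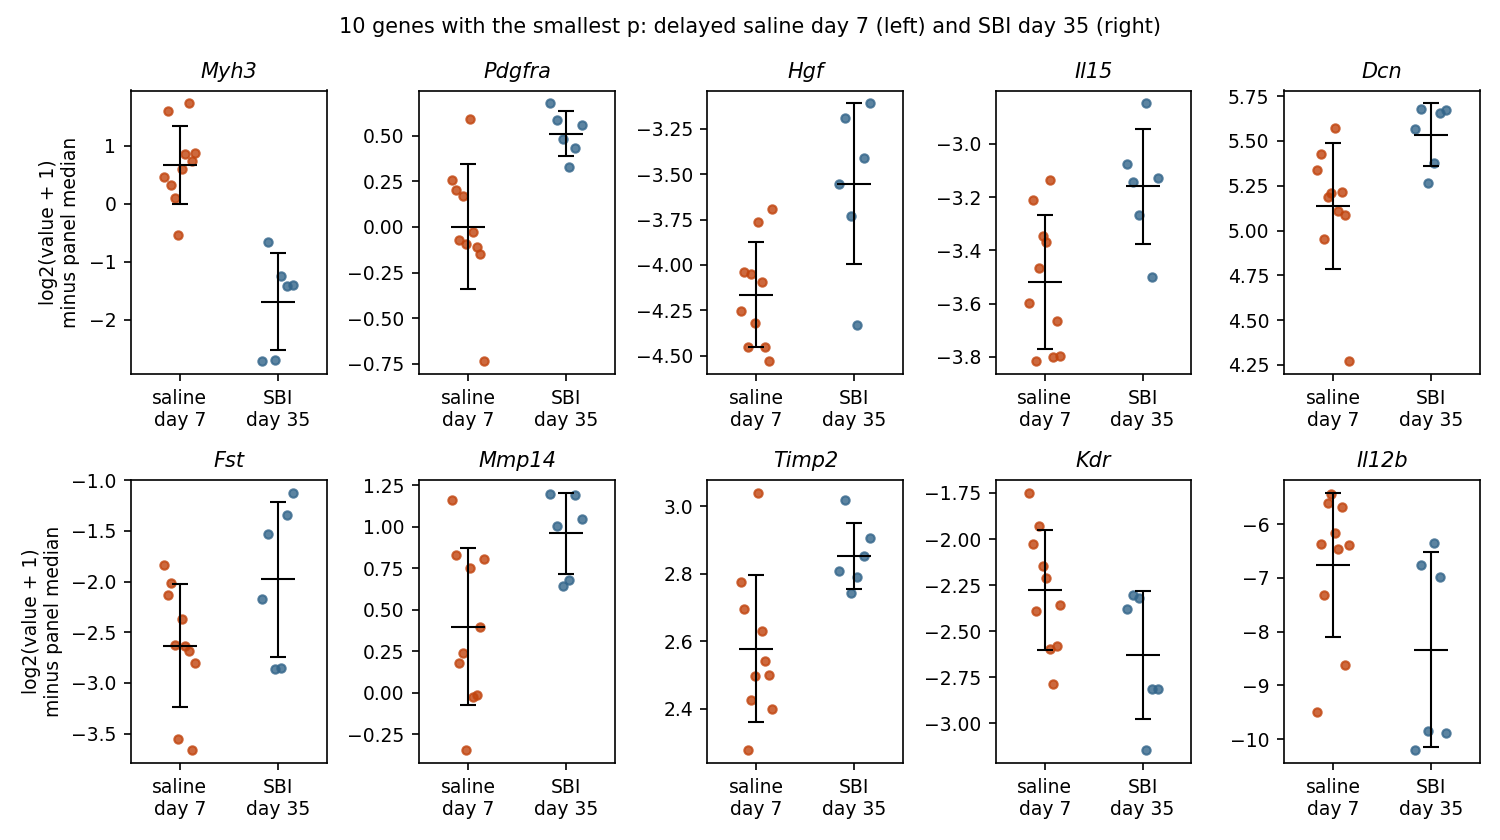
Centred log2 level (log2(value + 1) minus the panel median of the sample) of the 10 genes with the smallest p, with delayed saline day 7 (10 samples) left of SBI day 35 (6 samples); points are samples, bars are means with 1 SD. Myh3 is the gene whose groups do not overlap; 9 of the 10 saline samples lie below all SBI day 35 samples for Pdgfra.

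For the 2 called genes, the bases before the annotated start are shown to place them in the rat genome, from RefSeq on GRCr8. Myh3 starts on the plus strand after chr10:52268935-52269184 and Pdgfra on the minus strand after chr14:33408517-33408766. Capitals mark matches to CANNTG, the E-box motif that myogenic factors such as Myod1 and Myog can bind, and to TATAAA, the core of the TATA box, searched on both strands of these 250 bases.
Myh3: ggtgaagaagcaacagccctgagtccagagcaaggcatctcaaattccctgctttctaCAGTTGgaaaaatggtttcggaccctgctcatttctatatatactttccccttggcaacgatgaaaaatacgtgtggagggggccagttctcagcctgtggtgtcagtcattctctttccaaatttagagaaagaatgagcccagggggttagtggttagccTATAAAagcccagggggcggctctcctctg
Pdgfra: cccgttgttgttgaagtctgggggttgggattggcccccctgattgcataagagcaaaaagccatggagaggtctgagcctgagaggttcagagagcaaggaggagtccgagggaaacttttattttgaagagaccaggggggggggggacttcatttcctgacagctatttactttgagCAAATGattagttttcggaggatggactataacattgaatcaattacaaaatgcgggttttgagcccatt
The window of Myh3 held 1 CANNTG, 192 bases before the start, and 1 TATAAA, 30 bases before it. That of Pdgfra held 1 CANNTG, 70 bases before the start, and no TATAAA. Among 33469 rat promoters in the same table, 65.5% of windows of this length held CANNTG and 12.9% held TATAAA, and the 2 motifs did not overlap in either gene. A match is a string of letters and shows no binding.

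The other 9 panel genes of muscle formation did not pass the test. The list of 10 had 3 genes above 0 and 7 below it, with a median difference of -0.20 against -0.02 over the panel. The transcription factor gene Myod1 differed by 0.41 ± 0.31 (SE) and Myf6, a factor of maturing fibres, by 0.35 ± 0.28. Myog, which drives fusion, differed by -0.09 ± 0.30. The satellite cell markers Pax7 and Myf5 stood at -0.25 ± 0.29 and -0.41 ± 0.24, and together they took a median of 0.00975% of counts in delayed saline day 7 and 0.0121% in SBI day 35. Myh3 was therefore the 1 gene of this list called, and neither the stem cell markers nor the factors of myoblasts passed beside it.

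Hgf, a growth factor gene whose product activates satellite cells, had the third smallest p. Its centred log2 level was -4.53 at the lowest, -4.17 at the median and -3.69 at the highest in delayed saline day 7, against -4.33, -3.48 and -3.11 in SBI day 35, and 3 of the 10 saline samples lay below every SBI sample. The overlap of the other 7 rests on SBI day 35 replicate 4 (-4.33), the library with 11 probes at 0, and replicate 3 (-3.73). The difference was -0.61 ± 0.22 (SE, unadjusted p = 0.00654, adjusted p = 0.292 in limma). Recovered counts of 17 to 69 in delayed saline day 7 and 17 to 91 in SBI day 35 make its counting error larger than that of Myh3 or Pdgfra.

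Altogether 10 genes (7.46% of the panel) had an unadjusted p under 0.05, 3 of them higher (2.24%) and 7 lower (5.22%) in delayed saline day 7, and 8 of the 10 did not pass after adjustment. Beside Myh3, the higher ones were Kdr, the main receptor gene for vascular endothelial growth factor on endothelium, and Il12b, a subunit gene of the interleukins 12 and 23. Beside Pdgfra and Hgf, the lower ones were Il15, a cytokine gene also expressed by muscle fibres, Dcn, Fst, Mmp14 and Timp2. Fst encodes follistatin, which binds and blocks myostatin. Mmp14 encodes a membrane-bound metalloproteinase that, together with the product of Timp2, activates the gelatinase of Mmp2.

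No gene of the 4 matrix lists was called. Their counts above and below 0 were 1 and 2 for matrix structure, 2 and 1 for matricellular genes, 5 and 4 for matrix enzymes and 1 and 3 for metalloproteinase inhibitors, against 64 and 70 over the panel. Decorin (Dcn), a small proteoglycan that coats collagen fibrils, had a centred log2 level of 4.27 at the lowest, 5.20 at the median and 5.57 at the highest in delayed saline day 7, against 5.26, 5.61 and 5.68 in SBI day 35. Of the 10 saline samples, 7 lay below all SBI day 35 samples, and the difference was -0.40 ± 0.17 (SE, adjusted p = 0.480 in limma). Dcn was named from a single value of the authors' table, so by value its identity rests on less than that of most genes. Its name does fall in the alphabetical order that the names keep over all 133 pairs of neighbouring probes. Mmp14 stood at -0.35, 0.32 and 1.16 (lowest, median and highest) in delayed saline day 7, against 0.65, 1.03 and 1.20 in SBI day 35, a difference of -0.56 ± 0.25 (adjusted p = 0.50). Timp2, an inhibitor gene, stood at 2.28, 2.52 and 3.04 in delayed saline day 7, against 2.74, 2.83 and 3.02 in SBI day 35, a difference of -0.27 ± 0.13 (adjusted p = 0.617).

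The collagens did not follow Dcn. Col1a1 differed by 0.01 ± 0.36 (SE) and Col3a1 by -0.25 ± 0.28, and their saline samples spread widely, with Col1a1 between 2.79 and 5.85 in delayed saline day 7 and between 3.18 and 4.52 in SBI day 35. The 4 fibroblast markers Pdgfra, Dcn, Col1a1 and Col3a1 together took 2.76 to 9.43% of counts in delayed saline day 7 (median 4.15%) and 3.50 to 6.86% in SBI day 35 (median 5.39%); the part of the other 3 markers in the Pdgfra difference was not tested. The metalloproteinase inhibitor genes had a median of -0.22, and Timp1 differed by -0.30 ± 0.37. The 9 matrix enzyme genes had a median of 0.06, and Has1, a hyaluronan synthase gene, stood at 0.68 ± 0.47. Among the matricellular genes Tnc, a glycoprotein of healing matrix, differed by 0.73 ± 0.47 and Thbs1, which can activate latent TGF-beta, by -0.36 ± 0.45. In the list of TGF-beta and fibroblast genes the other 6 members ranged from -0.24 to 0.09, all closer to 0 than Pdgfra.

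**Figure D3:**
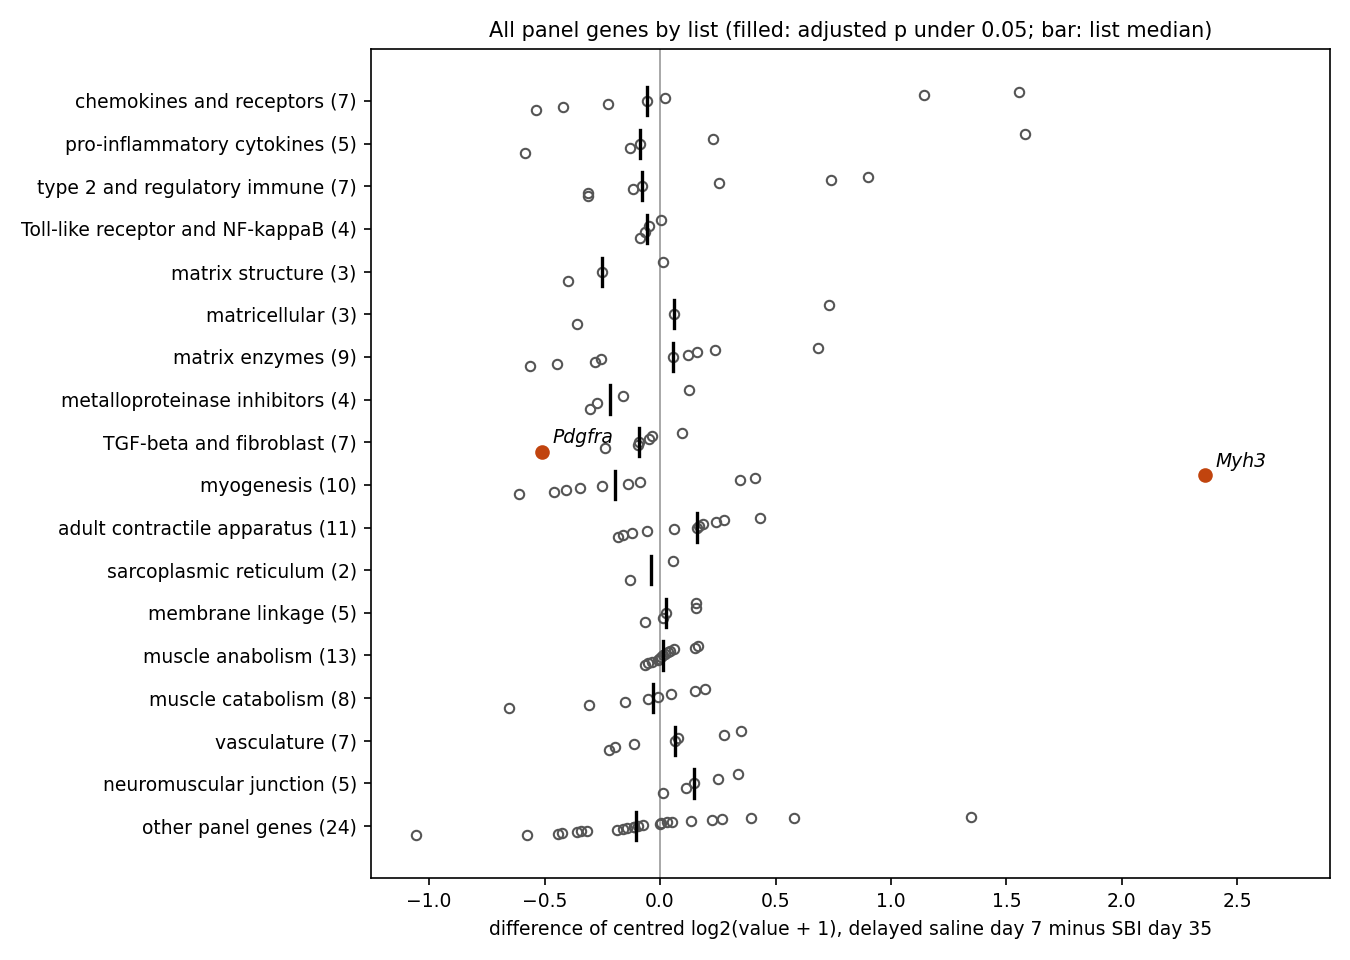
Difference of centred log2 level, delayed saline day 7 minus SBI day 35, for all 134 panel genes (horizontal axis), grouped by gene list with the number of genes in brackets; open circles did not pass, filled circles passed an adjusted p under 0.05, and the black bar is the median of the list. Myh3 (2.36) and Pdgfra (-0.51) are the filled circles; the list medians lie between -0.25 and 0.16.

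Vessel genes gave 4 differences above and 3 below 0, with a median of 0.06. Kdr had a centred log2 level of -2.79 at the lowest, -2.29 at the median and -1.75 at the highest in delayed saline day 7, against -3.15, -2.60 and -2.30 in SBI day 35. The groups overlap in 5 of the 10 saline samples, and the difference was 0.35 ± 0.17 (SE, adjusted p = 0.617 in limma). Flt1, another receptor gene of the same growth factors, differed by 0.28 ± 0.14, while Tie1, an endothelial receptor gene, stood at -0.22 ± 0.13. The 2 endothelial markers Kdr and Tie1 thus lay on opposite sides of 0.

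No inflammatory gene passed the test, and several of them were counted at or near 0. Chemokine genes and their receptors had a median of -0.06 over 7 genes, pro-inflammatory cytokine genes -0.09 over 5, type 2 and regulatory genes -0.08 over 7 and genes of Toll-like receptor signalling -0.06 over 4. Il12b had recovered counts of 0 to 12 in delayed saline day 7 and 0 to 7 in SBI day 35, with 1 and 3 samples at 0, and its difference of 1.58 ± 0.78 (SE, adjusted p = 0.617 in limma) rests on a few molecules. Cxcr2, a neutrophil receptor gene, was at 0 in 5 of 10 samples of delayed saline day 7 and in 3 of 6 of SBI day 35, and differed by 1.55 ± 1.07. The chemokine gene Ccl4 differed by 1.14 ± 0.77, with 1 and 3 samples at 0, and by 0.75 ± 0.82 without SBI day 35 replicate 4. Centring places a count of 0 higher in delayed saline day 7 than in SBI day 35, as the panel medians averaged 9.51 and 10.19. The part of this shift in the differences of Il12b, Cxcr2 and Ccl4 was not tested.

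Of the other inflammatory members, Tnf differed by -0.59 ± 0.73, Il10ra by 0.90 ± 0.54 and Gata3 by 0.74 ± 0.52. SBI day 35 replicate 4 had a count of 0 for all 3. Without it the differences of Il10ra and Gata3 turned to -0.01 and -0.06, and that of Tnf was -1.34. The SE was then 0.51 for Il10ra and 0.50 for Gata3, so neither had a clear sign, and neither was called with or without that library. The part of detection in it was not tested. The macrophage markers Adgre1, Arg1, Nos2 and Ccr2 took 0.0259 to 0.0881% of counts in delayed saline day 7 and 0.0382 to 0.104% in SBI day 35, with differences of -0.57 ± 0.56, -0.31 ± 0.63, 0.58 ± 1.07 and 0.02 ± 0.31 in that order. The neutrophil markers Cxcr2 and Mmp8 took a median of 0.0020% in delayed saline day 7 and 0.0024% in SBI day 35. The highest was 0.00874% in delayed saline day 7 and 0.00302% in SBI day 35. Mmp8 differed by -0.45, on the other side of 0 from Cxcr2. The lymphocyte markers Foxp3, Gata3, Tbx21 and Il2 took a median of 0.0193% in each group. Their highest share was 0.0310% in delayed saline day 7 and 0.0226% in SBI day 35. Of these 4 markers 2 lay above 0 and 2 below, from -1.06 (Tbx21) to 0.74 (Gata3). Without SBI day 35 replicate 4, Tbx21 stood at -1.82 ± 0.81 and Il2 at -0.93 ± 0.69 (SE), and neither was called. The immune signalling genes Myd88 and Nfkb1, which were well counted, differed by -0.09 ± 0.22 and -0.07 ± 0.15.

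No gene of the mature fibre passed the test, and the SEs are too wide to show that the groups were equal. The 11 contractile genes had a median of 0.16, with 7 above and 4 below 0. The largest was titin (Ttn), the elastic filament of the sarcomere, with 0.43 ± 0.56 (SE), followed by Actn2, which anchors thin filaments, with 0.28 ± 0.35. Skeletal actin (Acta1) differed by 0.24 ± 0.45, the fast myosin gene Myh1 by 0.16 ± 0.48 and the slow myosin gene Myh7 by -0.18 ± 0.56. Troponin Tnnt3 and desmin (Des) stood at -0.06 ± 0.43 and 0.03 ± 0.26. Embryonic myosin thus differed by 2.36, and the 2 adult myosins by 0.16 ± 0.48 and -0.18 ± 0.56.

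Genes of membrane linkage (5, median 0.03), of the sarcoplasmic reticulum (2, median -0.04) and of the neuromuscular junction (5, median 0.15) had no call either. Dmd, the dystrophin gene, and Itga1, a collagen receptor subunit gene, differed by 0.16 ± 0.28 and 0.16 ± 0.12 (SE). Sln and Jsrp1, which act on calcium handling, stood at -0.13 ± 0.44 and 0.06 ± 0.35. All 5 junction genes lay above 0, between 0.01 and 0.34, with Musk, the receptor that clusters acetylcholine receptors, at 0.34 ± 0.41 and Erbb2 at 0.25 ± 0.31. Over the panel 64 of 134 genes (47.8%) lay above 0.

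Growth signalling genes lay close to 0. The 13 anabolic genes ranged from -0.07 to 0.16 around a median of 0.01, with Igf1r, the receptor gene for insulin-like growth factor, at 0.16 ± 0.12 and the kinase gene Gsk3b at 0.15 ± 0.15 (SE). The 8 genes of the catabolism list, which holds the myostatin blocker Fst beside catabolic genes, had a median of -0.03. Fst stood apart among them, with a centred log2 level of -3.67 at the lowest, -2.63 at the median and -1.84 at the highest in delayed saline day 7, against -2.87, -1.85 and -1.12 in SBI day 35. The groups overlap, and the difference was -0.65 ± 0.28 (SE, adjusted p = 0.480 in limma). Mstn, which encodes myostatin, differed by -0.31 ± 0.57. Il15, which belongs to no list, stood at -3.82, -3.53 and -3.14 (lowest, median and highest) in delayed saline day 7, against -3.50, -3.14 and -2.85 in SBI day 35, a difference of -0.36 ± 0.15 (adjusted p = 0.480).

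Whether the saline difference depends on when saline was given was tested against immediate injection, with the contrast of delayed saline day 7 over SBI day 35 minus immediate saline day 7 over SBI day 7. No gene passed in limma (0 of 134 genes, with 4 or 2.99% at an unadjusted p under 0.05, and 0 by voom on the recovered counts); without centring 71 genes (53%) passed, all lower. For Myh3 the saline difference was 2.36 ± 0.67 after delayed and 0.80 ± 0.68 after immediate injection, and these differed by 1.56 ± 0.95 (SE, adjusted p = 0.991). For Pdgfra they were -0.51 ± 0.14 and -0.07 ± 0.14, and differed by -0.44 ± 0.20 (adjusted p = 0.991). The 2 calls are therefore not shown to be particular to delayed injection.

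The level of Myh3 itself was far higher soon after injury. Its mean centred log2 level was 4.41 ± 1.15 (SD, n = 9) in immediate saline day 7 and 3.61 ± 1.85 (n = 6) in SBI day 7, against 0.67 ± 0.67 in delayed saline day 7. Pdgfra stood at 0.48 ± 0.28 in immediate saline day 7 and 0.55 ± 0.12 in SBI day 7, close to its level in SBI day 35.

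A like test against day 3 after delayed injection asked whether the difference changed over those days. No gene passed in limma (0 of 134 genes, with 10 or 7.46% at an unadjusted p under 0.05, and 0 by voom); without centring 21 genes (15.7%) passed, all lower. The smallest adjusted p was that of Adam12, a metalloproteinase gene of regenerating muscle and activated stroma, at 0.0992 with a change of -1.79 ± 0.51 (SE). Leaving out SBI day 31 replicate 1 took it to -2.20 (adjusted p = 0.00397), and 3 others of the 31 single omissions also took it past the threshold. For Myh3 the saline difference was 2.36 ± 0.67 at day 7 and 0.66 ± 0.68 at day 3 against SBI day 31, and these differed by 1.70 ± 0.95 (adjusted p = 0.727). For Pdgfra they were -0.51 ± 0.14 and -0.24 ± 0.14, and differed by -0.27 ± 0.20 (adjusted p = 0.994).

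Within delayed saline, 1 gene of 134 (0.746%) differed between day 7 and day 3. Adam12 had a centred log2 level of -3.91 at the lowest, -3.47 at the median and -3.00 at the highest at day 7, against -2.95, -1.63 and -0.68 at day 3. Every day 7 sample lay below every day 3 sample, with a narrow gap, and the difference was -1.73 ± 0.32 (SE, adjusted p = 5.04e-05 in limma). At day 7 Adam12 was near its level in SBI day 35 (a difference of 0.24 ± 0.36), and at day 3 it stood 2.02 ± 0.37 above SBI day 31 (adjusted p = 3.32e-05). Tnc and Col3a1 followed at -1.37 ± 0.42 and -0.80 ± 0.25 (adjusted p = 0.0719 for both). Each passed in 1 of 19 single omissions, Tnc without day 3 replicate 2 (adjusted p = 0.00725) and Col3a1 without day 7 replicate 6 (adjusted p = 0.0481). Myh3 did not pass between the days (0.42 ± 0.59, adjusted p = 0.763), nor did Pdgfra (-0.17 ± 0.13, adjusted p = 0.553). The day 3 and day 7 samples also differ in scale, and without centring 82 genes (61.2%) were lower at day 7.

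**Figure D4:**
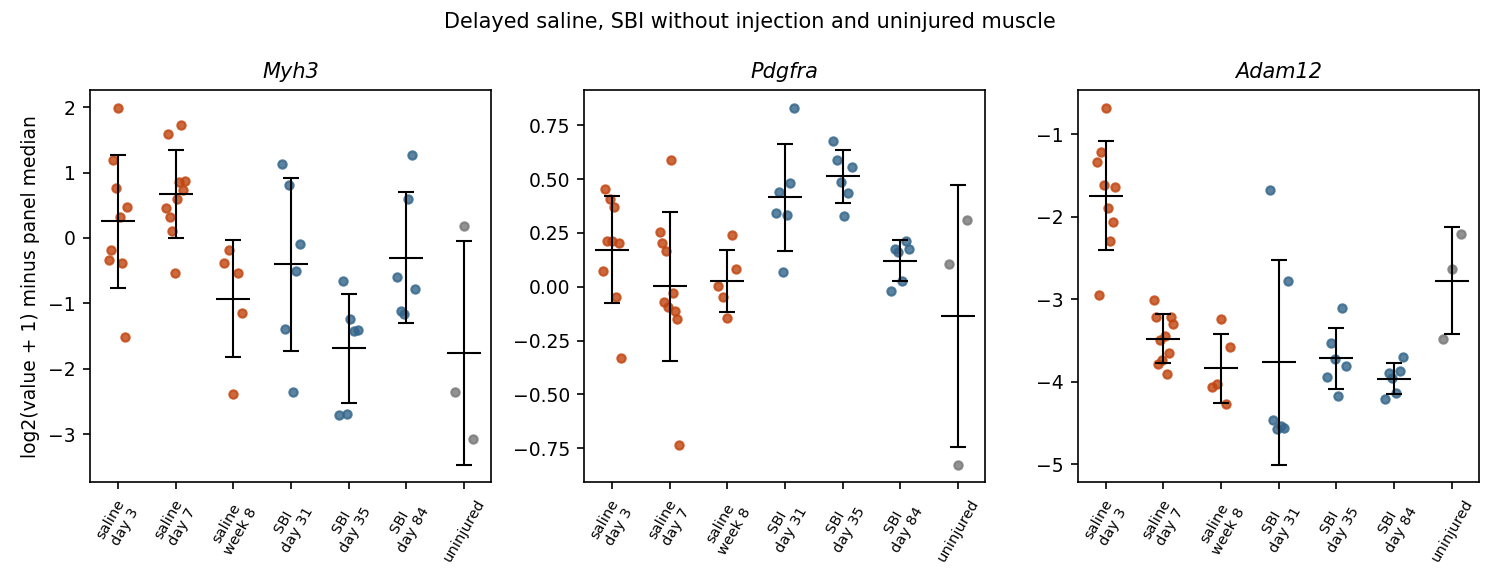
Centred log2 level of Myh3, Pdgfra and Adam12 in delayed saline at day 3, day 7 and week 8 after injection, in SBI without injection at days 31, 35 and 84 after injury, and in uninjured muscle; points are samples and bars are means with 1 SD. Myh3 is highest in delayed saline day 7 (mean 0.67) and low in SBI day 35 (-1.69), and Adam12 in saline is high at day 3 alone (-1.74).

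Across the late groups the levels of Myh3 varied among uninjected samples too. Its mean centred log2 level was 0.26 ± 1.02 (SD, n = 9), 0.67 ± 0.67 (n = 10) and -0.93 ± 0.89 (n = 5) at day 3, day 7 and week 8 after delayed saline. In SBI without injection it was -0.40 ± 1.32 (n = 6) at day 31, -1.69 ± 0.83 (n = 6) at day 35 and -0.30 ± 1.00 (n = 6) at day 84. The SBI day 35 group thus had the lowest mean of the 3 late uninjected groups, and the means at days 31 and 84 lie within 1 SD of each other. Delayed hydrogel at day 7 stood at 0.40 ± 0.85 (n = 9), near delayed saline. For Pdgfra the means were 0.17 ± 0.25, 0.00 ± 0.35 and 0.03 ± 0.15 at day 3, day 7 and week 8 after delayed saline, and 0.42 ± 0.25, 0.51 ± 0.12 and 0.12 ± 0.09 at days 31, 35 and 84 without injection.

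Against uninjured muscle no gene passed in limma (0 of 134 genes, with 6 or 4.48% at an unadjusted p under 0.05, and 0 by voom, over 10 and 3 samples); without centring 58 genes (43.3%) passed, all lower. Myh3 differed by 2.43 ± 0.85 (SE, adjusted p = 0.170) in delayed saline day 7 and by 0.07 ± 0.91 in SBI day 35, both against the same 3 uninjured samples. Those samples spread widely, at -3.08, -2.36 and 0.18 for Myh3. Fst stood at -1.14 ± 0.36 and Ttn at 2.15 ± 0.72 (adjusted p = 0.153 for both) in delayed saline day 7 against uninjured muscle. Of 13 single omissions, Ttn passed in 2, those of uninjured replicate 1 (adjusted p = 0.0165) and replicate 3 (adjusted p = 0.0289). Both omissions were from the 3 uninjured samples. For Pdgfra the difference was 0.14 ± 0.18 in delayed saline day 7 and 0.65 ± 0.19 in SBI day 35 (adjusted p = 0.992 and 0.0753).

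The authors' deposited table lists 10 genes for this comparison. In the authors' deposited table Myh3 had a log2 fold change of 2.35 with a q of 0.002, Pdgfra -0.48 with a q of 0.03, Hgf -0.67 with a q of 0.05 and Mmp12 -1.36 with a q of 1.96e-08, and the other 6 had a q of at least 0.15. Each value of the authors' deposited table lay above the log2 ratio of group means in the value table, by 0.63 to 0.68 with a median of 0.66. That offset is near the size of the difference in panel median (-0.68). For this comparison the folds of the authors' deposited table thus lie close to the centred scale and not to that of the deposited values. In the 8 other comparisons, by which the probes were named, the authors' folds lay close to the deposited values without centring. The median difference there was 0.0049 over the probes. Why this comparison differs from those was not tested. For Myh3 and Pdgfra the centred differences of 2.36 and -0.51 stand close to the folds of 2.35 and -0.48 in the authors' deposited table.

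Mmp12, a macrophage elastase gene, is the gene of this table whose centred difference has another sign, and was chosen after its values were seen. Its ratio of arithmetic group means lay 0.64 below the fold of the authors' deposited table, like that of the other 9 genes, so the gap arises between that ratio and the mean of log2 values used in the fit. In the value table its recovered counts were 0 to 500 in delayed saline day 7 and 0 to 897 in SBI day 35. Its deposited values had a median of 12.3 in delayed saline day 7 and 10.4 in SBI day 35. On log2 levels the groups overlap throughout, and the difference was 0.06 ± 1.40 (SE, adjusted p = 0.994 in limma). Centring places a count of 0 higher in delayed saline day 7 than in SBI day 35, and the part of this in the sign was not tested.

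**Figure D5:**
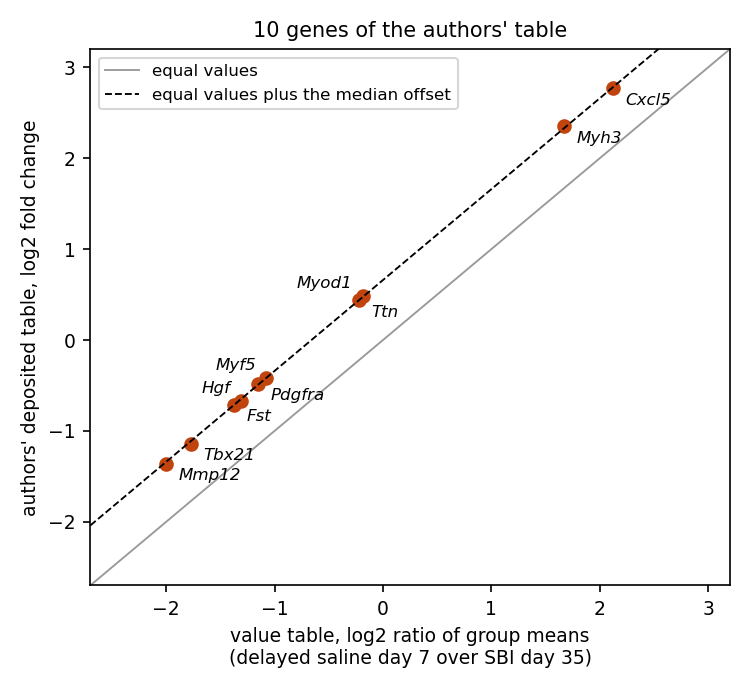
Log2 fold change of the authors' deposited table (vertical axis) against the log2 ratio of group means in the value table (horizontal axis), delayed saline day 7 over SBI day 35, for the 10 genes the authors' table lists; the solid line marks equal values and the dashed line equal values plus the median offset of 0.66. All 10 genes lie along the dashed line.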

How the data were processed

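RNA from pubocaudalis muscle was measured on an nCounter codeset made for the study, per the labels' protocols. The authors deposited a normalized signal for 134 probes in 127 samples; the software and the scaling used for it are not stated in those sources. All 16829 values above the floor were whole multiples, within 0.05 of a count, of a factor per sample, and 189 were listed as 0.1, in place of a count of 0. The value table has no gene names. They came from the authors' deposited workbook of log2 fold changes, matched by value over 8 comparisons that did not include saline against SBI. All 134 probes received 1 of 136 names, 129 of them the best match both ways (not App, Ccn2, Dcn, Ikbkb and Prkaa1; Ccn2 was matched on 2 values and Dcn on 1). The names ran in alphabetical order over all 133 pairs of neighbouring probes, an order that the matching did not use.

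The analysis used log2(value + 1), centred on each sample's panel median. The added 1 understates the change of low genes. After centring, a count of 0 stands higher where the panel median is lower. For Il12b it stood at -9.49 in delayed saline day 7 replicate 1. In SBI day 35 replicates 1, 3 and 6 it stood at -10.21, -9.84 and -9.88. The analysis fitted all 18 groups with limma 3.58.1 (R 4.3.3, lmFit, eBayes) and adjusted by Benjamini-Hochberg over 134 genes at 0.05. Among the SBI samples of day 3 and day 7, 3 pairs had identical counts, less apart than sampling noise allows, and each pair was counted as 1 sample, leaving 124. Differences are given ± SE. Scale was tested by exact permutation over samples (Python 3.11.15, scipy 1.17.1). Alternatives covered scale, pseudocount, low values, fit, voom with TMM factors computed in R, the replicate number as a block and single samples. The fit was tested on simulated data. Genes named are the called ones, the 10 with the smallest p, the 2 largest differences of each uncalled list, the cell type markers and the called genes of the other comparisons; Myf6, Myod1, Myog and Mmp12 were added after their values were seen. The groups compared, the 17 gene lists and the 9 marker lists were chosen with earlier results of these data known. Adipocyte and Schwann cell markers had no gene on the panel. No sample was dropped or imputed in the main analysis. Counting error is small except for probes near 0.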

Additional observations from a re-analysis of the deposited data

Results flagged for a closer look

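Of 110 sets of values (the genes named in the text, the panel median, the total count and the number of probes at 0, each in the 2 groups), 13 held a sample whose gap to the nearest other was large for the range of its group; chance gives about 1 in 20. Delayed saline day 7 replicate 10 accounts for 5 of them. Its centred log2 level was 4.27 for Dcn (the other 9 samples at 4.95 to 5.57), 7.29 for Tnnt3 (others 8.04 to 8.86), 7.31 for Des (others 7.97 to 8.60), 0.26 for Thbs1 (others -2.20 to -0.91) and -1.55 for Erbb2 (others -4.45 to -2.94). Low Tnnt3, Des and Dcn thus stand together with high Thbs1 and Erbb2 in that library. None of the other fibre markers was flagged in it.

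SBI day 35 replicate 4 accounts for another 5. It had 11 probes at a count of 0 (the other 5 samples 0 to 3), and among these Tnf, Il10ra, Gata3 and Il2 stood at a centred log2 level of -10.15, the floor of that sample, with the other samples at -6.08 to -4.87, -5.95 to -3.55, -5.83 to -4.49 and -5.94 to -4.76 in that order. SBI day 35 replicate 3 had a level of -9.84 for Has1, also a count of 0 (others -6.04 to -3.99). Delayed saline day 7 replicate 5 had -1.78 for Arg1 (others -5.44 to -3.64), and replicate 9 had 0.35 for Nfkb1 (others 0.62 to 0.85).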

How the results depend on the processing

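With the main setting, 2 genes were called in the comparison of delayed saline day 7 with SBI day 35. The count was 2 with centring on the mean or on 20 stable probes, a pseudocount of 10, a filter at 50, an intensity trend or a robust prior. It was 73 on the deposited scale, 9 with array weights, 1 with only the compared groups in the fit, and 0 with quantile normalization, with voom, with all deposited samples kept and without delayed saline day 7 replicate 10 and SBI day 35 replicate 4 together (chosen after seeing the data). Single omissions gave 0 to 2. Timing against immediate injection gave 0 calls, 71 on the deposited scale, and 0 under each single omission. Against day 3, the change in the saline difference gave 0 calls, 21 on the deposited scale, 10 with array weights, 1 with mean or stable-probe centring, and 0 to 2 under single omissions. Delayed saline day 7 against day 3 gave 1 call, 82 on the deposited scale, 48 with array weights (31 higher, 17 lower), 10 with only those groups, 4 and 3 with stable-probe and mean centring, 2 with voom, and 1 to 2 under single omissions. Against uninjured muscle, 0 calls became 58 on the deposited scale, 1 with array weights and 0 to 1 under single omissions. The causes were not tested. No pairing by replicate number was seen in the main comparison (correlations of same-numbered samples -0.218 to 0.206, none the best match). So few samples cannot settle whether the numbers pair them. Same-numbered samples were the best match for replicate 6 of day 7 against day 3 (0.459) and for replicate 1 against uninjured muscle (0.146). With the replicate block the counts were 1 in the main comparison (Myh3), 12 for day 7 against day 3 and 3 against uninjured muscle. The panel median difference ranged from -0.72 to -0.65 under single omissions, and that in recovered total count (-43392) from -171070 to 10425, against -741591 for deposited totals (p = 0.00025, exact permutation test). Without centring, Itga1 (-0.52), Igf1r (-0.52), Gsk3b (-0.53), Flt1 (-0.40) and Des (-0.65) turned negative and passed. Myh3 (1.68 to 2.63) and Pdgfra (-1.19 to -0.34) kept their sign under all 14 other alternatives run, and passed in 10 and 8 of them. The edgeR alternative was not run.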
